A study of Mus musculus with 8 samples.

Results

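Cecal epithelial cells of antibiotic-treated mice labelled Abx_14D were set against those labelled Abx_4D. The comparison holds every cell of the 4 cecal samples of each group that had at least 500 transcripts, 3807 of the 15916 cells that pass this minimum in the series. Abx_14D 1 to 4 gave 445, 356, 971 and 524 cells (2296 in all), and Abx_4D 1 to 4 gave 298, 191, 465 and 557 cells (1511 in all). The study profiled the large intestine of mice given antibiotics, germ-free mice and controls by single-cell RNA sequencing with a split-pool barcoding kit, in which RNA is labelled inside fixed cells over rounds of pooling. The 8 deposited libraries each hold cells of every condition, and the loaded sample of a cell was read from its barcode.

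All groups share the same preparation. Epithelium was released with EDTA, Dispase II and DNase I, pooled by condition, and sorted as EPCAM+ CD45- cells, with CD44+ and CD44- cells put together in equal parts. The labels give neither what 14D and 4D stand for nor the antibiotic, strain, age or sex. They do not say that numbered samples are separate mice, so the p-values here reflect sample-to-sample spread only, part of which can be technical. The control (Ctrl) and germ-free (GF) cecal samples, 4 each, entered the fits to estimate the spread, and their levels are given for scale.

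Summed transcripts ran from 8068659 to 15414170 in the Abx_14D samples and from 1821737 to 10009028 in the Abx_4D samples. Epcam, which the sort selects for, averaged 1584 ± 343 CPM in Abx_14D and 1609 ± 282 CPM in Abx_4D (SD, n = 4 each), where CPM is a count scaled to the same library total in every sample. Ptprc, which encodes CD45, was at 0.956 to 8.11 CPM in Abx_14D and at 0 to 12.8 CPM in Abx_4D. The median mitochondrial share per cell was above 0.5% in Abx_14D 3 (0.597%), Abx_14D 4 (0.655%) and Abx_4D 2 (0.565%). Abx_4D 4 was just under it at 0.485%, and results are also given without the 3 samples above it. GF 4, at 0.66%, was above it too. It was left out of the same fits, so their estimate of the spread also lacks this sample. The interaction fit below holds no GF sample.

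MHC class II molecules present peptides from the endosomal route to CD4+ T cells. An alpha and a beta chain assemble on the invariant chain, encoded by Cd74, which blocks the peptide groove until proteases such as cathepsin S (Ctss) trim it and H2-M (H2-DMa with H2-DMb1) exchanges its last fragment for a peptide. Ciita is the co-activator that switches the class II genes on through factors bound at their promoters, 1 of which is NF-Y at the Y box. Intestinal epithelium carries class II in addition to professional antigen-presenting cells, and interferon gamma is a known inducer.

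Class II genes made up 5 of the 8 genes called in all cells, and the promoters of the pair below hold the Y box. RefSeq promoters of build GRCm38.p6 run from 250 bases before to 50 after each start; the authors' own build is mm39, so the coordinates apply to GRCm38.p6 alone. H2-Aa lies at chr17:34287774-34288073 on the minus strand and H2-Eb1 at chr17:34305617-34305916 on the plus strand. Capitals mark the letters CTGATTGG, which hold CCAAT in inverted form.
H2-Aa: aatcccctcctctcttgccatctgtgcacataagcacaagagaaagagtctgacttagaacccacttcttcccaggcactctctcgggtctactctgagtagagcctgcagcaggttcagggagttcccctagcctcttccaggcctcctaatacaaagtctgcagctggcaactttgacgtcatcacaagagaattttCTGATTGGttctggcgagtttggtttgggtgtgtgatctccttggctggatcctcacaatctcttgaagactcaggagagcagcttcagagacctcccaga
H2-Eb1: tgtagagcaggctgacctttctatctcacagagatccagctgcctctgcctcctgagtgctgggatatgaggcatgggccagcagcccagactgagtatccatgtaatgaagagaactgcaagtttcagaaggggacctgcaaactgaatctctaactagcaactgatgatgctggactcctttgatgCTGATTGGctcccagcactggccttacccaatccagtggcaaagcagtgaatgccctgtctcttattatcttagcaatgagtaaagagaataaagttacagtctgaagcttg
The first base of the motif is 51 bases before the start in H2-Aa and 62 bases before it in H2-Eb1. Both strands were searched. The letters were found in 4 of the 9 class II list genes with a usable promoter entry (12 are listed), the other 2 being H2-Eb2 and H2-Oa, whose expression was not tested. Of the 5 class II genes called in all cells 3 had a usable entry, and 2 of these have the letters in this window, H2-DMb1 being the one without. They were found in 0 of 7 other called genes with a usable entry and in 1346 of all 32851 promoters (4.1%). Entries on a chromosome left out of the search by gene were not usable, but they are in the count over all promoters. A match describes these letters and is not a test of binding.

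In all cells together, class II presentation genes were lower in Abx_14D than in Abx_4D, as were Cd177, Duox2 and Ceacam10. Of 13376 genes tested with edgeR's quasi-likelihood test on summed counts, 8 passed a Benjamini-Hochberg adjusted p of 0.05 (0.0598% of those tested). All 8 were lower in Abx_14D and 0 were higher. At an unadjusted p under 0.05, 197 genes were higher and 363 lower, and with DESeq2 18 genes passed, 2 higher and 16 lower. With no count filter 16 passed, 2 higher and 14 lower.

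Cd74 was at 56.3, 39.2, 29.3 and 43.3 CPM in Abx_14D 1 to 4, against 313, 94.96, 222 and 121 CPM in Abx_4D 1 to 4. Every Abx_14D sample was below every Abx_4D sample, and the spread within Abx_4D was the wider. Here and below, groups without overlap are a description only, as their share over all genes tested was not counted. Genes named for a low p tend to have groups apart, and fewer samples in a group make this more likely by chance. The log2 fold change was -2.17 ± 0.33 (standard error, as for all fold changes here; adjusted p = 0.00924). Ctrl averaged 386 ± 35.6 CPM and GF 5.01 ± 2.41 CPM (SD, n = 4 each), so that the levels ran GF, Abx_14D, Abx_4D, Ctrl in rising order.

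H2-Ab1, the beta chain of I-A, was at 7.26, 9.30, 6.49 and 10.8 CPM in Abx_14D, against 67.8, 20.9, 46.1 and 27.1 CPM in Abx_4D (log2 -2.29 ± 0.34, adjusted p = 0.00924). H2-Aa, its alpha chain, was at 1.94, 5.33, 2.60 and 3.59 CPM in Abx_14D, against 24.7, 10.4, 19.3 and 15.5 CPM in Abx_4D (log2 -2.42 ± 0.37, adjusted p = 0.00924). The groups did not overlap for either chain. H2-Eb1, the beta chain of I-E, was at 3.75, 4.96, 2.60 and 3.94 CPM in Abx_14D, against 27.9, 8.78, 25.6 and 13.2 CPM in Abx_4D (log2 -2.37 ± 0.35, adjusted p = 0.00924). H2-DMb1, the beta chain of H2-M, was at 1.45, 1.61, 0.908 and 1.31 CPM in Abx_14D, against 6.92, 2.20, 7.89 and 5.42 CPM in Abx_4D (log2 -2.19 ± 0.38, adjusted p = 0.0304). These groups did not overlap either, Abx_4D 2 being the lowest of its group for all 4 genes.

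Not every class II gene passed the test. Ciita had a log2 fold change of -2.12 ± 0.40 with an adjusted p of 0.0643. H2-DMa averaged 7.65 ± 0.593 CPM in Abx_14D and 9.66 ± 2.47 CPM in Abx_4D (SD, n = 4 each). Ctss averaged 90.6 ± 45.1 CPM in Abx_14D and 71.6 ± 26.7 CPM in Abx_4D (SD, n = 4 each), with overlapping groups. The other 4 of the 12 listed genes, H2-Eb2, H2-DMb2, H2-Oa and H2-Ob, had at most 21 counts in a group and were not tested. The median log2 fold change was -2.18 over the 8 listed genes tested and -0.03 over all genes tested.

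**Figure D1:**
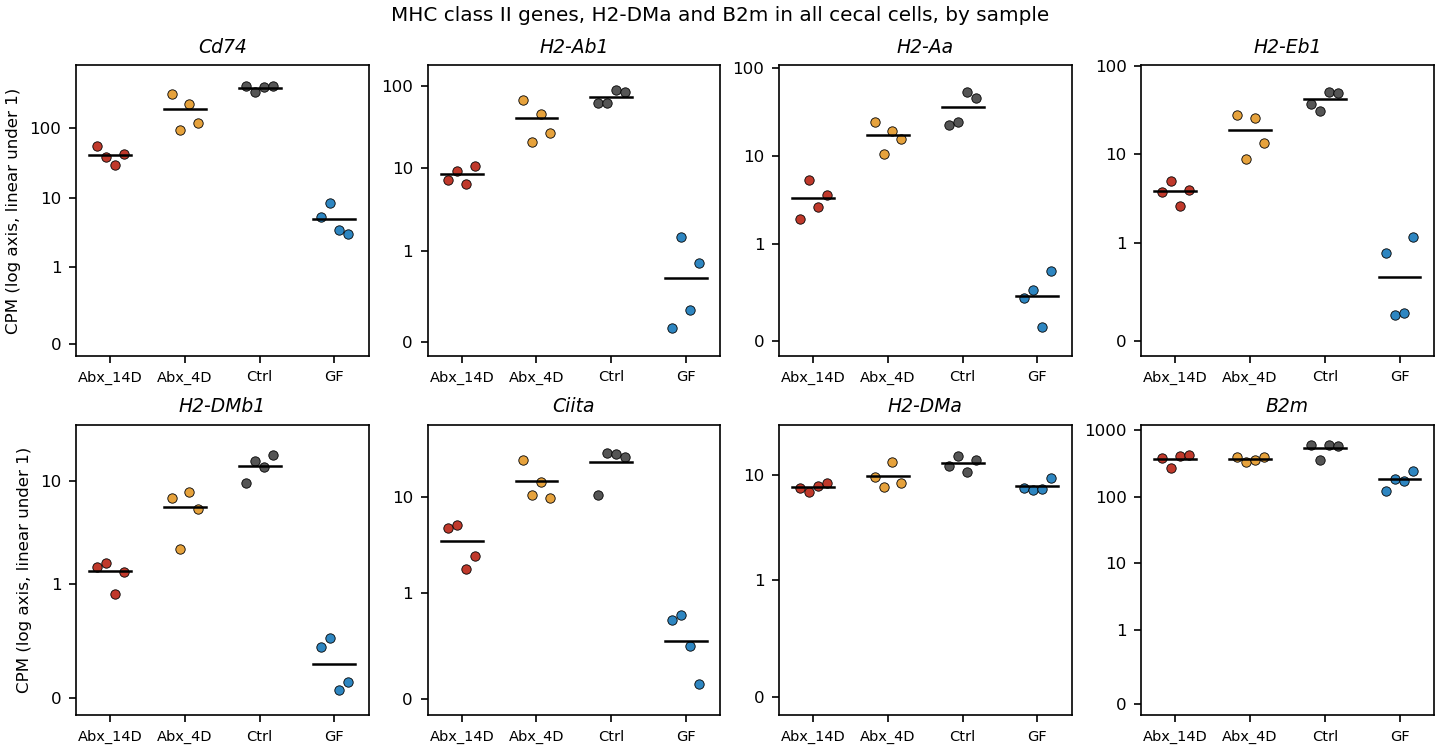
CPM of MHC class II genes, H2-DMa and B2m in all cecal cells (log axis, linear under 1), with a point per sample and a line at the mean of each group. For Cd74, H2-Ab1, H2-Aa, H2-Eb1 and H2-DMb1 every Abx_14D sample lies below every Abx_4D sample, while for H2-DMa and B2m the points of both groups overlap.

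Of the remaining called genes, Cd177 and Duox2 are on the antimicrobial and mucosal defence list, and Ceacam10 is not. Cd177, a surface glycoprotein best known from neutrophils, was at 3.996, 6.44, 2.66 and 2.15 CPM in Abx_14D, against 33.0, 34.6, 22.7 and 14 CPM in Abx_4D (log2 -2.76 ± 0.44, adjusted p = 0.0138). Duox2, an oxidase that releases hydrogen peroxide at the epithelial surface, was at 3.75, 2.85, 1.23 and 3.94 CPM in Abx_14D, against 24.9, 14.8, 15.99 and 8.58 CPM in Abx_4D (log2 -2.49 ± 0.42, adjusted p = 0.0282). Neither gene's groups overlapped. Ceacam10, a member of the carcinoembryonic antigen family, was at 1.70, 0.496, 0.519 and 0.717 CPM in Abx_14D, against 8.11, 6.59, 5.89 and 5.72 CPM in Abx_4D (log2 -2.96 ± 0.39, adjusted p = 0.00779); it is under the 10 CPM that the naming rule asks for and was added after its values were seen.

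The number of calls in all cells rested on 2 samples. Without Abx_14D 3, or without Abx_14D 4, edgeR called 0 genes. Cd74 then had log2 fold changes of -2.03 (adjusted p = 0.0813) and -2.19 (adjusted p = 0.0553), and without Abx_14D 2 it had -2.14 (adjusted p = 0.0589). Without the 3 samples above 0.5% mitochondrial share, and GF 4 with them, the count was 0 as well. Cd74 then had a log2 fold change of -2.20 (adjusted p = 0.22). Duox2 and H2-DMb1 each kept their call in 1 of the 8 fits that leave out 1 sample, and Cd177 in 3 of 8.

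The cells were also split by summed marker transcripts per 10000 into mature absorptive cells, goblet cells, dividing cells, noncycling stem-like cells and an ungated remainder. The thresholds were set on the marker distributions over all cecal cells without regard to group, and each class is a range of a score rather than a cluster. Across the 8 samples 164 cells lay near the absorptive threshold, against 840 past it, and 386 near the stem threshold, against 1431 past it. Dividing cells were gated by S phase and by G2 and mitosis markers. Near the S phase threshold lay 316 cells, against 535 past it. Near the G2 and mitosis threshold lay 232, against 867 past it. Samples with fewer than 20 cells of a class were left out of its fit. These were Abx_4D 2 and Ctrl 1 for mature absorptive cells. For goblet cells they were Abx_4D 1, Abx_4D 2, Ctrl 1 and Ctrl 3.

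In noncycling stem-like cells 5 class II genes, Cd177, Ceacam10 and Nos2 were lower in Abx_14D. These were the 8 called genes of 10136 tested (0.0789%). Cd74 was at 79.8, 59.8, 109 and 104 CPM in Abx_14D, against 380, 240, 340 and 180 CPM in Abx_4D (log2 -1.73 ± 0.22, adjusted p = 0.000403). H2-Aa was at 1.97, 2.45, 3.42 and 5.06 CPM in Abx_14D, against 29.4, 22.3, 28.6 and 23.3 CPM in Abx_4D (log2 -3.13 ± 0.40, adjusted p = 0.000403). H2-Ab1 had a log2 fold change of -2.34 ± 0.31 (adjusted p = 0.000412) and H2-Eb1 of -2.61 ± 0.41 (adjusted p = 0.00229). The groups overlapped for none of these 4 genes.

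Ciita passed the test in the stem-like cells, at 4.92, 7.84, 3.42 and 6.08 CPM in Abx_14D against 35.8, 27.9, 28.0 and 16.9 CPM in Abx_4D (log2 -2.24 ± 0.35, adjusted p = 0.00229). All 5 class II genes kept their call in each of the 8 fits that leave out a sample. Without the 3 samples of higher mitochondrial share, Cd74, H2-Aa and H2-Ab1 kept it, while H2-Eb1 (adjusted p = 0.0646) and Ciita (adjusted p = 0.157) did not.

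Of the 13 antimicrobial and mucosal defence genes tested in the same stem-like cells, Cd177 and Nos2 were called lower and 11 were not called. Over the 13, 4 estimates were above 0 and the median log2 fold change was -0.24, beside -0.01 over all genes tested there. Cd177 was at 3.45, 6.86, 5.98 and 3.04 CPM in Abx_14D, against 49.3, 72.4, 29.7 and 13.7 CPM in Abx_4D (log2 -2.88 ± 0.44, adjusted p = 0.00229). Ceacam10 was at 2.46, 0.490, 0 and 2.03 CPM in Abx_14D, against 12.2, 11.1, 11.4 and 16.1 CPM in Abx_4D (log2 -3.24 ± 0.50, adjusted p = 0.00229). Every Abx_14D sample was below every Abx_4D sample for both. Nos2, the inducible nitric oxide synthase, gave 3 transcripts in Abx_14D and 58 in Abx_4D, a ratio of 0.0408 per transcript sequenced (exact 95% interval 0.00818 to 0.125, for counting error). Its adjusted p was 0.00548, and 0.0617 without Abx_14D 2 and 0.0779 without Abx_4D 1. In all cells Nos2 did not pass (adjusted p = 0.087). Without the 3 samples of higher mitochondrial share, Ceacam10 kept its call in stem-like cells (adjusted p = 0.0474), while Cd177 (adjusted p = 0.157) and Nos2 (adjusted p = 0.136) did not.

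Dividing cells showed the class II genes alone among their calls. All 4 called genes of 10978 tested (0.0364%) were class II genes and lower in Abx_14D. Cd74 was at 63.4, 35.0, 31.1 and 25.5 CPM in Abx_14D, against 312, 75.4, 229 and 132 CPM in Abx_4D (log2 -2.32 ± 0.30, adjusted p = 0.000489). H2-Eb1 was at 2.77, 3.63, 3.07 and 2.22 CPM in Abx_14D, against 26.4, 9.84, 29.0 and 18.8 CPM in Abx_4D (log2 -2.92 ± 0.34, adjusted p = 0.000153). The groups were apart for both genes. H2-Ab1 (log2 -2.71 ± 0.32, adjusted p = 0.000153) and H2-Aa (log2 -3.19 ± 0.41, adjusted p = 0.000408) were called too. All 4 calls held in each of the 8 fits that leave out 1 sample. Without the 3 samples of higher mitochondrial share H2-Aa lost its call (adjusted p = 0.0613), and Cd74, H2-Ab1 and H2-Eb1 kept theirs. H2-DMb1, Ceacam10 and Ciita missed the threshold with an adjusted p of 0.0565 each.

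In mature absorptive cells, the differentiated cells that take up water, ions and nutrients, 8 of 9353 genes passed (0.0855%), all lower in Abx_14D. Duox2 had the largest fold change of the 8, at 6.69, 0.761, 1.56 and 2.47 CPM in Abx_14D against 83.2, 30.7 and 18.2 CPM in Abx_4D 1, 3 and 4 (log2 -4.02 ± 0.50, adjusted p = 0.000178). Cd74 was at 33.4, 37.3, 13.2 and 16.6 CPM in Abx_14D, against 102, 188 and 96.9 CPM in Abx_4D (log2 -2.55 ± 0.30, adjusted p = 0.000156). H2-Aa was at 2.67, 3.81, 2.77 and 2.47 CPM in Abx_14D, against 24.7, 27.5 and 21.9 CPM in Abx_4D (log2 -3.09 ± 0.41, adjusted p = 0.000284). For these 3 genes the groups were apart and the call held without each sample in turn. H2-Ab1 had a log2 fold change of -2.52 ± 0.37 (adjusted p = 0.00135), and -2.11 (adjusted p = 0.101) without Abx_4D 3.

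The other 4 absorptive calls were less firm. B3galt5, a galactosyltransferase of glycan chains, was at 1.34, 3.81, 3.12 and 5.29 CPM in Abx_14D, against 6.17, 24.4 and 20.4 CPM in Abx_4D (log2 -2.41 ± 0.44, adjusted p = 0.029). It averaged 301 ± 137 CPM in Ctrl 2 to 4 (SD). Ly6a, the surface protein Sca-1, was at 5.35, 3.81, 6.07 and 6.70 CPM in Abx_14D, against 40.1, 23.8 and 13.1 CPM in Abx_4D (log2 -1.95 ± 0.38, adjusted p = 0.0432). Slc13a2, a sodium-coupled citrate and succinate transporter, was at 122, 139, 146 and 99.8 CPM in Abx_14D, against 456, 303 and 219 CPM in Abx_4D (log2 -1.33 ± 0.26, adjusted p = 0.0432). The groups of these 3 genes did not overlap, but those of Gm19951, a predicted gene, did (log2 -1.60 ± 0.32, adjusted p = 0.0464). Of the 7 fits that leave out a sample, B3galt5 was called in 3, Gm19951 in 2, and Ly6a and Slc13a2 in 1 each. The largest adjusted p was 0.398 for B3galt5 and 0.371 for Ly6a, both without Abx_4D 3, and 0.28 for Slc13a2 without Abx_4D 1. Without the 3 samples of higher mitochondrial share 0 genes were called in this class, with an adjusted p of 0.0505 for Cd74.

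**Figure D2:**
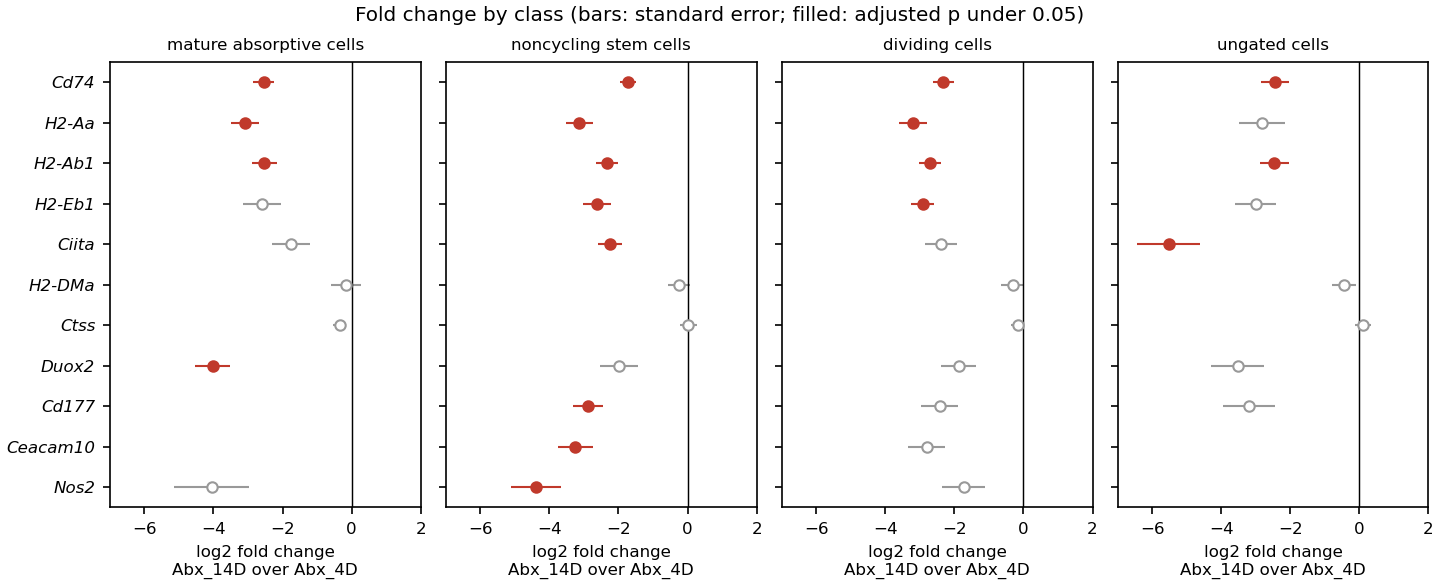
Log2 fold change, Abx_14D over Abx_4D, of class II and defence genes in 4 classes, with bars for the standard error and filled points for an adjusted p under 0.05; genes not tested in a class have no point. Cd74 and H2-Ab1 are filled in all 4 panels, and H2-DMa and Ctss are filled in none.

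Ungated cells, which passed no gate, had 3 called genes of 9799 tested (0.0306%), all class II genes and lower in Abx_14D. Cd74 was at 30.2, 7.03, 16.9 and 71.0 CPM in Abx_14D, against 317, 109, 151 and 89.9 CPM in Abx_4D (log2 -2.45 ± 0.42, adjusted p = 0.0149). H2-Ab1 had a log2 fold change of -2.46 ± 0.41 (adjusted p = 0.0149). Ciita gave 1 transcript in Abx_14D and 45 in Abx_4D, a ratio of 0.0142 (exact 95% interval 0.000351 to 0.0832; adjusted p = 0.0149). Calls fell to 0 without Abx_14D 1, without Abx_14D 3 or without Abx_4D 3, with adjusted p of 0.0968, 0.123 and 0.0505 for each of the 3 genes, and none of the 3 was called without Abx_4D 1 (Cd74 0.0656).

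Goblet cells, the mucin-secreting lineage, had 2 called genes of 9609 tested (0.0208%), both lower in Abx_14D. Cd74 was at 25.5, 14.9, 9.54 and 10.03 CPM in Abx_14D, against 154 and 63.3 CPM in Abx_4D 3 and 4 (log2 -2.86 ± 0.44, adjusted p = 0.0418). The other was Alb, serum albumin, with 1 transcript in Abx_14D and 54 in Abx_4D. Of the 44 Alb transcripts of Abx_4D 3, 43 were in 1 cell, and the 10 of Abx_4D 4 were in 5 cells. Leaving out a sample kept the Cd74 call only without Abx_4D 4, with an adjusted p of 0.997 without Abx_4D 3 and of 0.0526 without Abx_14D 1.

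Class II genes were thus called in each class, with medians over the list of -2.54 in mature absorptive cells (8 tested), -2.77 in goblet cells (5), -2.19 in stem-like cells (8), -2.53 in dividing cells (8) and -2.46 in ungated cells (7). An interaction fit asked whether the difference in mature absorptive cells differed from that in stem-like plus dividing cells, within the same samples. None of the 8 class II genes passed. The interaction term was -0.39 ± 0.30 for Cd74, 0.08 ± 0.43 for H2-Aa and 0.01 ± 0.62 for H2-Ab1, which does not show that the classes moved alike. Duox2, at -2.16 ± 0.53, did not pass either (adjusted p = 0.328).

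Tspear was the gene of 12022 tested (0.00832%) that passed the interaction test, at -2.99 ± 0.45 (adjusted p = 0.0213). It was at 4.01, 5.33, 7.28 and 2.82 CPM in absorptive cells of Abx_14D, against 46.2, 35.0 and 18.2 CPM in those of Abx_4D 1, 3 and 4. Its log2 fold change was -2.55 in absorptive cells, 0.85 in stem-like cells and 0.22 in dividing cells. The call held in 3 of 7 fits without a sample and was lost without Abx_14D 2 (adjusted p = 0.063), Abx_14D 4 (0.133), Abx_4D 1 (0.0693) or Abx_4D 3 (0.264). It was also lost with a stricter gate.

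Fewer cells held a Cd74 transcript in Abx_14D than in Abx_4D. Cd74 and H2-Ab1, the genes counted per cell, were already called in all cells of these same samples. The permutation p-values on their shares are therefore not separate support. The 12 comparisons also overlap, as all cells contain the classes. Because deeper cells show more genes, each cell was thinned to 3000 transcripts, which left out 186 Abx_14D and 108 Abx_4D cells below that depth. Of the thinned cells, 11.2%, 8.38%, 6.52% and 7.27% held Cd74 in Abx_14D 1 to 4, against 44.0%, 22.6%, 34.8% and 20.04% in Abx_4D 1 to 4. The means were 8.35 ± 2.07% in Abx_14D and 30.3 ± 11.1% in Abx_4D (SD, n = 4 each; exact two-sided permutation p = 0.0286, the smallest that 4 against 4 allows, and 0.0381 adjusted over 12 comparisons). In germ-free cells, where Cd74 was lowest, the share was 0.375% to 1.53%, with median depths of 11728 to 22139 transcripts per cell against 11416 to 17858 in Abx_14D and 6254 to 16338 in Abx_4D. Without thinning the shares were 20.9 ± 6.36% in Abx_14D and 48.9 ± 17.5% in Abx_4D (SD, n = 4 each).

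The same held within the classes. In stem-like cells 15.4 ± 2.83% held Cd74 in Abx_14D and 40.6 ± 10.3% in Abx_4D, and in dividing cells 9.86 ± 2.06% in Abx_14D and 31.3 ± 12.5% in Abx_4D (SD, n = 4 each). In mature absorptive cells it was 4.72 ± 2.16% in Abx_14D (SD, n = 4) and 17.1 ± 4.25% in Abx_4D (SD, n = 3). These 3 differences each had an exact permutation p of 0.0286 and an adjusted p of 0.0381. In goblet cells 3.39 ± 0.912% held it in Abx_14D (SD, n = 4) and 21.1 ± 7.81% in Abx_4D (SD, n = 2). The exact permutation p was 0.0667, the smallest that 4 against 2 allows. Abx_14D 1 to 4 had 30, 23, 46 and 27 thinned goblet cells, and a single positive cell sets each share. The SD of Abx_14D there reflects these cell numbers only. H2-Ab1 was held by 2.68 ± 1.11% of all cells in Abx_14D and 11.8 ± 5.55% in Abx_4D (SD, n = 4 each; exact permutation p = 0.0286), but in absorptive cells the shares did not differ beyond their spread (exact permutation p = 0.429). Thinned cells with Cd74 held 1.94 ± 0.497 transcripts of it in Abx_14D and 1.98 ± 0.372 in Abx_4D (SD, n = 4 each), too close to a single transcript to read a level per cell.

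**Figure D3:**
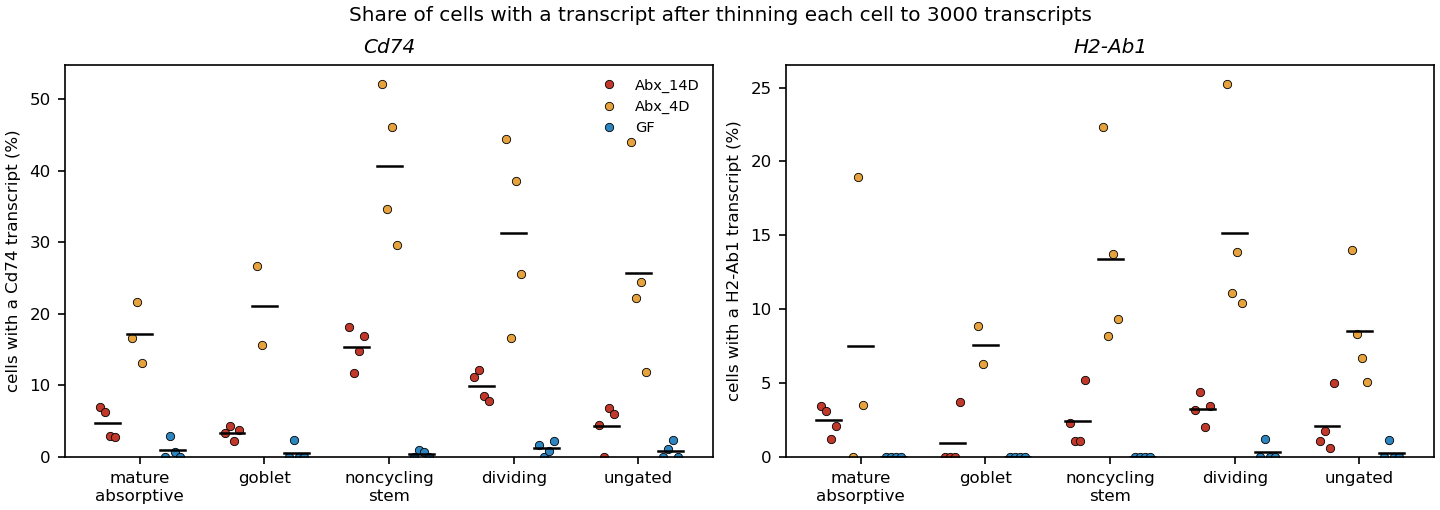
Share of cells (%) with a Cd74 or H2-Ab1 transcript after thinning to 3000 transcripts per cell, by class, with a point per sample and a line at each mean. For Cd74 every Abx_14D point lies below every Abx_4D point of its class, and GF points lie near 0.

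Cells of other types were measured beside these results. Of 12 immune markers 11 were detected (Lyz2 was at 0), with a summed level of 3.97 to 12.1 CPM in Abx_14D and 1.10 to 25.1 CPM in Abx_4D. Of 29 markers of T, B and myeloid cells 26 were detected (Cd3d, Nkg7 and Lyz2 were at 0), summing to 10.4 to 286 CPM in Abx_14D and 6.59 to 946 CPM in Abx_4D. The immunoglobulin gene Igkc was at 90.4, 0.620, 0.649 and 1.08 CPM in Abx_14D and at 366, 1.10, 284 and 381 CPM in Abx_4D, so it followed the samples and not only the groups. Cells past the immune gate held 7.03% of the Cd74 transcripts of Abx_14D and 1.02% of those of Abx_4D. Stem-like and dividing cells together held most of them in both groups, with 32.3% and 32.6% in Abx_14D and 31.3% and 38.6% in Abx_4D. The setting without immune-gated and immunoglobulin-rich cells, here and below, also left out cells past several lineage gates. Those held 1.76% of the Cd74 transcripts of Abx_14D and 0.0209% of those of Abx_4D. The log2 fold change in all cells was then -2.30 for Cd74 (adjusted p = 0.00104), against -2.17 in the main fit. For H2-Aa it was -3.09 (adjusted p = 0.000527), against -2.42 in the main fit.

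MHC class I genes, whose products present peptides from the cytosol, gave 0 calls among the 20 tested in all cells, with 17 estimates below 0 and a median log2 of -0.19. Within the classes 0 were called too. Of those tested, 16 of 17 estimates were below 0 in mature absorptive cells (median -0.47), 14 of 15 in stem-like cells (-0.45), 15 of 16 in dividing cells (-0.52), 10 of 15 in goblet cells (-0.35) and 14 of 16 in ungated cells (-0.29). The median over all genes tested was 0.07 in absorptive, -0.01 in stem-like and goblet, 0.00 in dividing and 0.01 in ungated cells. B2m in all cells averaged 367 ± 70.2 CPM in Abx_14D and 368 ± 32.2 CPM in Abx_4D (SD, n = 4 each), and the signs of B2m and H2-K1 turn with the scaling. The listed gene with the lowest p was Psmb8, an immunoproteasome subunit, at 12.7, 9.54, 6.16 and 5.62 CPM in Abx_14D against 27.9, 14.3, 24.4 and 16.6 CPM in Abx_4D. Its groups did not overlap, but it was not called (log2 -1.32 ± 0.26, adjusted p = 0.103).

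Interferon-responsive genes gave 0 calls among 54 tested in all cells, with a median log2 of -0.04. In mature absorptive cells 0 of 49 were called, yet 47 estimates were below 0 with a median of -0.43. The count below 0 was 25 of 28 in stem-like cells (median -0.35), 31 of 34 in dividing cells (-0.36), 23 of 37 in goblet cells (-0.09) and 20 of 31 in ungated cells (-0.19), with 0 called in each. Iigp1, an interferon-inducible GTPase, was at 10.8, 12.6, 4.995 and 3.11 CPM in Abx_14D and at 39.1, 9.33, 62.5 and 13.7 CPM in Abx_4D, with overlapping groups (adjusted p = 0.351). Irf1, an interferon regulatory factor, averaged 65.7 ± 4.99 CPM in Abx_14D and 93.5 ± 11.96 CPM in Abx_4D (SD, n = 4 each; adjusted p = 0.948).

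Of the 22 antimicrobial and mucosal defence genes tested in all cells, 2 were called, the Cd177 and Duox2 given above, and the median log2 was -0.25. Duoxa2, the maturation factor of Duox2, was at 1.09, 0.124, 0.2595 and 0.837 CPM in Abx_14D and at 3.56, 1.10, 1.499 and 1.66 CPM in Abx_4D, and was not called. The lectin Reg3g averaged 2.28 ± 0.929 CPM in Abx_14D and 5.01 ± 3.70 CPM in Abx_4D, with 60.3 ± 38.8 CPM in Ctrl (SD, n = 4 each). Pigr, the receptor that carries IgA across the epithelium, averaged 2637 ± 406 CPM in Abx_14D and 3562 ± 462 CPM in Abx_4D (SD, n = 4 each) and was not called.

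**Figure D4:**
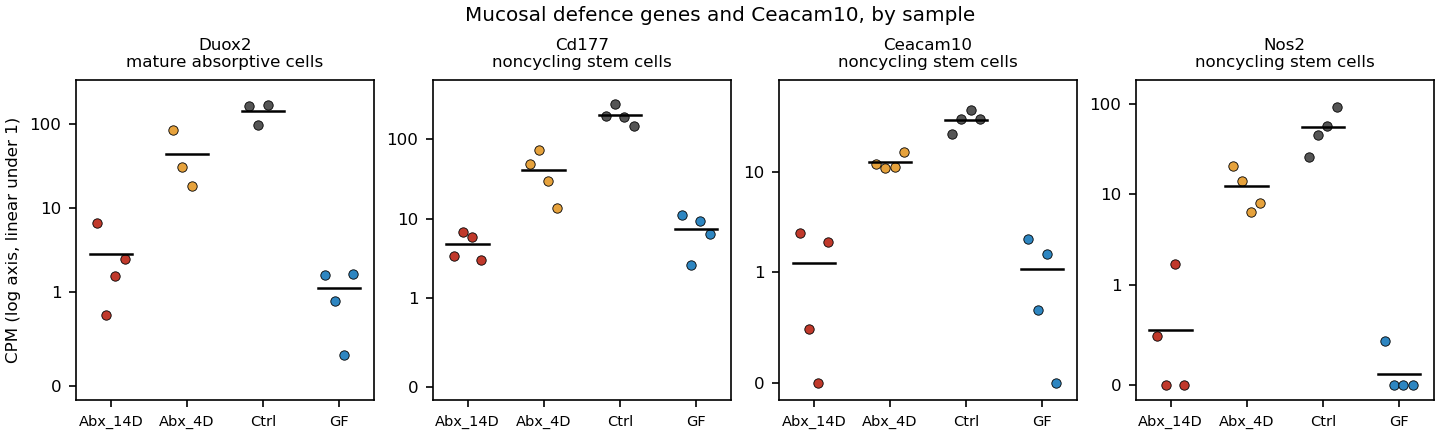
CPM (log axis, linear under 1) of Duox2 in mature absorptive cells and of Cd177, Ceacam10 and Nos2 in noncycling stem-like cells, with a point per sample and a line at the mean of each group. All Abx_14D points lie below all Abx_4D points in each panel.

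The other lists gave 0 calls in all cells. They included 32 glycosylation genes, 5 gasdermin genes, 8 metallothionein and zinc genes, and 19 genes of nicotinic acid and NAD metabolism, with median log2 values of -0.02, 0.12, 0.29 and 0.00. Gsdmc4, a gasdermin C gene, averaged 136 ± 22.7 CPM in Abx_14D and 118 ± 24.7 CPM in Abx_4D. Mt1, a metal-binding metallothionein, averaged 192 ± 75.3 CPM in Abx_14D and 141 ± 64.3 CPM in Abx_4D. Slc5a8, a sodium-coupled carrier of short-chain monocarboxylates and nicotinate, averaged 79.6 ± 10.6 CPM in Abx_14D and 65.7 ± 6.39 CPM in Abx_4D (SD, n = 4 each for the 3 genes). The groups overlapped for each of them.

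With the samples of all 4 groups, library-size scaling and the count filter, edgeR called 0 genes higher in Abx_14D in all cells and in each class. Other settings did call some, such as 3 of 16 genes in mature absorptive cells with DESeq2 and 34 of 102 there with no count filter. In all cells the lowest p among higher genes was that of Cadps, which primes secretory vesicles, at 15.3, 12.4, 5.71 and 11.7 CPM in Abx_14D against 0.395, 0, 0.599 and 2.71 CPM in Abx_4D. The groups did not overlap (adjusted p = 0.27). The summed level of 8 enteroendocrine markers was 14.9 to 117 CPM in Abx_14D and 1.65 to 15.8 CPM in Abx_4D, and its part in the Cadps value was not tested. In mature absorptive cells Oxct1, which lets cells burn ketone bodies, was at 152, 182, 200 and 190 CPM in Abx_14D against 40.1, 90.1 and 93.2 CPM in Abx_4D (log2 1.19 ± 0.25, adjusted p = 0.0687). Nr1d1, the clock repressor REV-ERB alpha, was at 45.5, 49.5, 87.3 and 79.3 CPM in Abx_14D against 30.8, 16.3 and 33.5 CPM in Abx_4D (log2 1.39 ± 0.29, adjusted p = 0.0645). Both sets of groups were apart, and neither gene passed the test.

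No class share was called different between the groups. With 4 samples each, 0.0286 is the smallest p the exact permutation test allows. After adjustment over 9 classes a call was therefore unlikely in advance. Mature absorptive cells were 23.9 ± 12.9% of Abx_14D cells and 11.4 ± 7.56% of Abx_4D cells (SD, n = 4 each; exact two-sided permutation p = 0.2, adjusted over 9 classes 0.551). Noncycling stem-like cells were 20.4 ± 9.27% of Abx_14D and 25.9 ± 5.03% of Abx_4D, and dividing cells 27.7 ± 2.31% of Abx_14D and 32.5 ± 6.05% of Abx_4D. Goblet cells were 5.98 ± 0.875% of Abx_14D and 6.68 ± 2.06% of Abx_4D, and no class had an adjusted p below 0.551. The equal mixing of CD44+ and CD44- cells at the sort sets part of these shares.

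**Figure D5:**
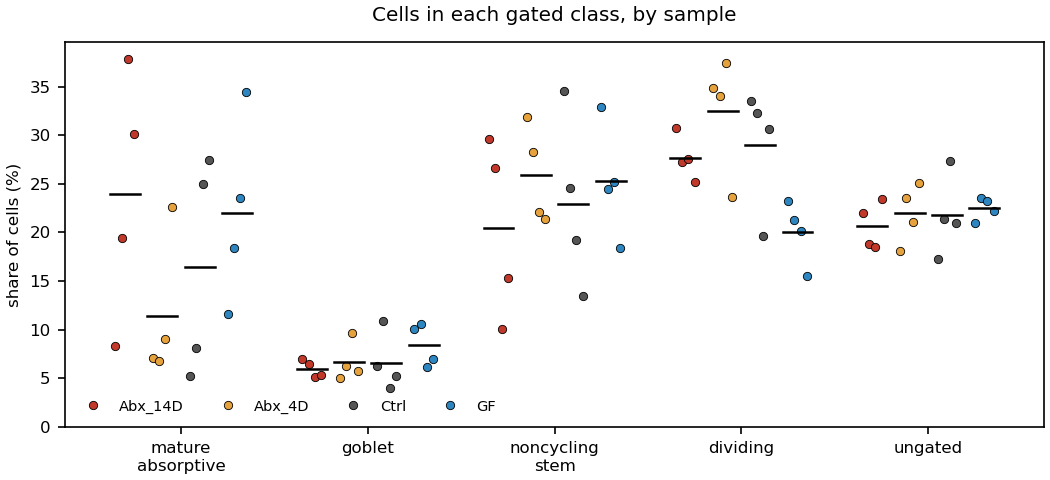
Share of cells (%) in each gated class, with a point per sample and a line at each group mean. The Abx_14D and Abx_4D points overlap in every class, and Abx_4D 4 has 22.6% mature absorptive cells against 6.81% to 9.03% in the other Abx_4D samples.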

How the data were processed

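The deposited file is a matrix of raw transcript counts per gene and barcode, made by the authors and read with their table of barcodes; per the submitters' processing notes, build mm39 and Seurat were used, and for the aligner and counter nothing is stated: not given in the sources used here. How reads that match related genes (the H2, Ceacam and Gsdmc families) were counted is not given either, so those genes are uncertain to that extent. Cells with at least 500 transcripts were kept, which removed 1 cecal barcode, in GF 4, and 0 of the groups compared. No doublet caller was run, and cells past several lineage gates were set apart. No barcode occurred in both groups, which follows from reading the sample from the barcode and is no check on doublets.

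Counts were summed per sample, and per sample and class, and tested with edgeR 4.0.16 (limma 3.58.1, R 4.3.3) by the quasi-likelihood test with library-size scaling and filterByExpr. The 16 cecal samples of 4 groups were in 1 fit, with Benjamini-Hochberg adjustment over all genes tested. The procedure was tested on simulated data. Shares were compared with exact permutation tests over samples, computed over all arrangements with NumPy 2.4.6. The exact intervals were computed with SciPy 1.17.1. Intervals cover counting error only. The 37 gene lists, the markers and the genes were chosen with earlier results of these data known. Named genes are the called genes with at least 10 CPM in a group (up to 12 each way, 8 per class), the 5 lowest p where fewer than 5 were called, list members called in any fit, and up to 4 uncalled list members of the highest level. Alternatives were TMM scaling, no count filter, DESeq2 1.42.0, limma voom, only the 8 samples and a replicate block. Further ones were at least 1000 transcripts, all barcodes, a stricter gate, the absorptive share as covariate, and samples left out. Leaving out immune-gated and immunoglobulin-rich cells, and with them cells past several lineage gates, was added after seeing the data.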

Additional observations from a re-analysis of the deposited data

Results flagged for a closer look

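In mature absorptive cells Gm19951 was at 4680 CPM in Abx_14D 3, against 2810 to 3040 CPM in the other Abx_14D samples. In goblet cells Alb was at 1.19 CPM in Abx_14D 3 and at 0 in the others, a single transcript. In ungated cells Ciita was at 0.423 CPM in Abx_14D 3 and at 0 in the others, again a single transcript. In ungated cells H2-Ab1 was at 11.1 CPM in Abx_14D 4, against 2.96 to 4.02 CPM in the others. The share of mature absorptive cells was 22.6% in Abx_4D 4, against 6.81% to 9.03% in the others. Sample 4 of Abx_14D, Ctrl and GF had shares of 30.2%, 27.4% and 34.5%. Each of the 5 flagged values stood far from the rest of its group by Dixon's test, which chance alone passes in about 1 of 20 groups. That rate does not hold for Alb and Ciita, where a single transcript beside samples at 0 always passes. In all, 74 groups of 4 were examined. Tspear differed between classes, with an interaction of -2.99 on the log2 scale, mature absorptive minus stem-like plus dividing cells.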

How the results depend on the processing

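The number of called genes depended on the processing. In all cells (8 genes) it was 16 with no count filter (2 higher in Abx_14D), 18 with DESeq2 (2 higher), 5 with only the Abx_14D and Abx_4D samples, 19 with the replicate block (7 higher) and 0 without the samples above 0.5% mitochondrial share. In mature absorptive cells (8) it was 102 with no filter (34 higher), 16 with DESeq2 (3 higher), 27 with the replicate block (9 higher), 12 with limma voom (3 higher), 6 with only the Abx_14D and Abx_4D samples (1 higher), 5 with the stricter gate and 0 without those samples. In goblet cells (2) it was 28 with no filter (12 higher), 14 with the replicate block (6 higher), 0 with limma voom, 1 with the stricter gate and 0 without those samples. In noncycling stem-like cells (8) it was 87 with no filter (39 higher), 9 with only the Abx_14D and Abx_4D samples (1 higher) and 4 without those samples. In dividing cells (4) it was 84 with no filter (33 higher), 10 with DESeq2, 11 with the replicate block and 4 without those samples (1 higher). In ungated cells (3) it was 103 with no filter (19 higher), 9 with DESeq2 (1 higher), 0 with only the Abx_14D and Abx_4D samples and 1 without those samples. The interaction (1) gave 0 without those samples. With the stricter gate it gave 1, a gene other than Tspear. Leaving out 1 sample at a time gave 0 to 9 genes in all cells, 5 to 14 in absorptive, 0 to 1 in goblet, 7 to 13 in stem-like, 4 to 9 in dividing and 0 to 8 in ungated cells, and 0 to 4 in the interaction. Of these, 1 or 2 genes were higher in Abx_14D in absorptive cells without Abx_14D 1 (2 of 6), Abx_14D 2 (1 of 10) or Abx_4D 4 (2 of 14), in stem-like cells without Abx_14D 1 (1 of 10) or Abx_4D 4 (1 of 13) and in ungated cells without Abx_4D 1 (1 of 5), and 3 of 4 interaction terms were above 0 without Abx_14D 1. Under the other settings run, 0 called genes were higher. With all barcodes as deposited the 8 genes in all cells were called again. Fits with fewer samples have fewer degrees of freedom; the cause of the other changes was not tested.

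Same-numbered samples correlated at 0.367, 0.144, 0.0759 and 0.348 in their deviations from the group means. Samples of different numbers correlated at -0.398 to 0.224. Abx_14D 2 correlated best with Abx_4D 1, and Abx_14D 3 with Abx_4D 4. The labels do not say that the numbers pair the samples, so the main fits had no replicate block. The share of mature absorptive cells was higher in samples 3 and 4 than in samples 1 and 2 in all 4 groups. For samples 1 to 4 it was 8.31%, 19.4%, 37.9% and 30.2% in Abx_14D and 7.05%, 6.81%, 9.03% and 22.6% in Abx_4D. It was 5.24%, 8.07%, 24.9% and 27.4% in Ctrl and 11.6%, 18.4%, 23.6% and 34.5% in GF. Whether same-numbered samples share an effect was not tested. In goblet cells the blocked fit rests on the pairs 3 and 4 and on 1 residual degree of freedom. No called gene changed direction under any alternative run. Among uncalled genes of all cells the sign turned with TMM scaling for B2m (0.034), H2-K1 (0.0349) and Galnt7 (0.0124), and with DESeq2 for B2m (0.0205), H2-K1 (0.0217) and Galnt7 (0.0011). It turned with the absorptive share as covariate for Ctss (-0.4289), Samd9l (-0.2126), Ifih1 (-0.083), Lypd8 (-0.5973), Galnt7 (0.1654), Fut8 (0.1941), Slc30a1 (-0.0519), Gsdmc2 (-0.029), Gsdmc4 (-0.0646), Gsdme (-0.008), Gsdmc3 (-0.0269), Slc16a1 (-0.0516), Nadk (-0.1253) and Slc5a8 (-0.0177). With the replicate block H2-K1 was at 0.0062, and without immune-gated and immunoglobulin-rich cells B2m was at 0.0205 and H2-K1 at 0.0041. It turned without the samples above 0.5% mitochondrial share for Ctss (-0.5285), Samd9l (-0.0279), Ifih1 (-0.0194), Lypd8 (-0.5147), B4galnt2 (0.0154), Galnt7 (0.0718), Fut8 (0.0274), Gcnt3 (-0.0249), Mt1 (-0.1099), Slc39a14 (-0.0171), Gsdme (-0.1261), Slc16a1 (-0.1609) and Nadk (-0.2285). Leaving out 1 sample gave ranges across 0 for B2m (-0.0797 to 0.122), H2-D1 (-0.1972 to 0.0234), H2-K1 (-0.1486 to 0.0699), Erap1 (-0.0815 to 0.1735), Lypd8 (-0.0417 to 0.5385), B4galnt2 (-0.1043 to 0.0918), Galnt7 (-0.073 to 0.0567), Gsdmc3 (-0.0588 to 0.1946), Cd38 (-0.1822 to 0.016) and Nadk (-0.0468 to 0.1768). The class shares stayed uncalled under each alternative run for them, which so few samples make likely in advance. Depth limits the low genes most: Abx_4D 2 had 1821737 transcripts, and Nos2, Ciita and Ceacam10 rest on few counts in Abx_14D, where a sample at 0 does not show absence.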
